A study of Mus musculus with 2 samples.

Results

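The myelin-related genes Mbp, Mobp, Pmp22, Mag, Cnp, Mal, Plekhb1 and Cdh19 were followed in RNA sequenced from mouse bone marrow cells. They are 8 of the 35798 rows of the deposited table, each a row that names 1 gene. The genes were selected by name with their levels in these same 2 libraries already known, so their levels and differences are a description and carry no test. The cells were sorted as CD45-, CD31- and Ter119-, which removes leukocytes, endothelium and red cells, and as positive for GFP under nestin regulatory sequence, a reporter of perivascular stromal cells. The control library came from Nes-gfp mice, which were littermates of the mutants. The JAK2 V617F library came from Nes-gfp;Mx1-cre;JAK2-V617F mice, which carry the activating kinase mutation of myeloproliferative neoplasms behind an interferon-inducible Cre. All animals were adult, on the C57BL/6 background, and were studied 6 weeks after pIpC, the double-stranded RNA analogue that induces Mx1-cre. Each library pooled 3 animals of 1 genotype, and there was 1 library per genotype (n = 1). No difference therefore has a replicate check. Control labels list neither Cre nor the mutation, so the effects of these cannot be told apart. Mx1-cre is active in blood-forming cells and in many other cell types, and the labels do not say in which cells the mutation was present.

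Myelin is the stack of glial membrane around axons, made by oligodendrocytes in the brain and by Schwann cells in peripheral nerve. Basic proteins such as MBP and MOBP bridge the cytoplasmic faces of the compacted membrane, tetraspan proteins such as PMP22 and MAL lie within it, and MAG faces the axon. Bone marrow holds no oligodendrocytes, but sympathetic fibres enter it with their Schwann cells, most of which do not myelinate. The study addressed these nerve fibres in the stem cell niche. Several of the genes are not restricted to glia: Mbp has an additional long transcription unit, golli, that is used in blood cells, Mal is a gene of T cells and epithelia, and Pmp22 and Cnp are widely transcribed.

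Expression is given as FPKM, the authors' fragment number scaled by transcript length and by the mapped total. One fragment on 1 kb of transcript, counted after 150 nt are taken off the length, was worth about 0.185 FPKM in control cells. In JAK2 V617F cells it was worth about 0.164 FPKM. Both are estimates made from the steps of the low values. Where a pair of levels is given, the control comes first. Jak2 was at 24.5 FPKM in control cells and 29.9 FPKM in JAK2 V617F cells, a row that does not separate the mutant from the normal allele. Stromal genes were present in both libraries, with Lepr at 84.8 and 65.4 FPKM and Cxcl12 at 891 and 694 FPKM in control and JAK2 V617F. Nes itself was low, at 4.84 and 3.00 FPKM. Genes of the depleted cells were not absent: Ptprc, which encodes CD45, was at 5.38 and 8.79 FPKM, and Pecam1, which encodes CD31, at 17.1 and 19.0 FPKM.

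Mbp, Mobp, Plekhb1 and Mal were higher in JAK2 V617F cells, and the others differed little or were barely detected. A gene was called higher or lower when log2((JAK2 V617F FPKM + 1)/(control FPKM + 1)), the log2 ratio used throughout, was at least 1 in size and the gene reached 1 FPKM in a library. This scale understates differences of low genes. A gene listed at 0 in control cells that reaches 1 FPKM in JAK2 V617F cells is called higher by construction. Of the 8 genes, 6 reached 1 FPKM, 4 of these were at least 2-fold higher, none was 2-fold lower and 2 lay within 2-fold. Of all 15425 rows that reached 1 FPKM, 13.7% were at least 2-fold higher and 11.3% at least 2-fold lower. Since the genes were chosen on this same contrast, nothing is read from their count. The 6 genes had a median log2 ratio of 1.86, all 8 had a median of 0.83, and all rows tested had a median of -0.03. The summed level of the 8 genes was 914 FPKM in control cells and 5774 FPKM in JAK2 V617F cells. Mbp alone made 68.2% of that sum in control cells and 84.4% in JAK2 V617F cells. In RNA of a whole sorted pool, more cells of a type and more RNA per cell cannot be told apart.

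**Figure D1:**
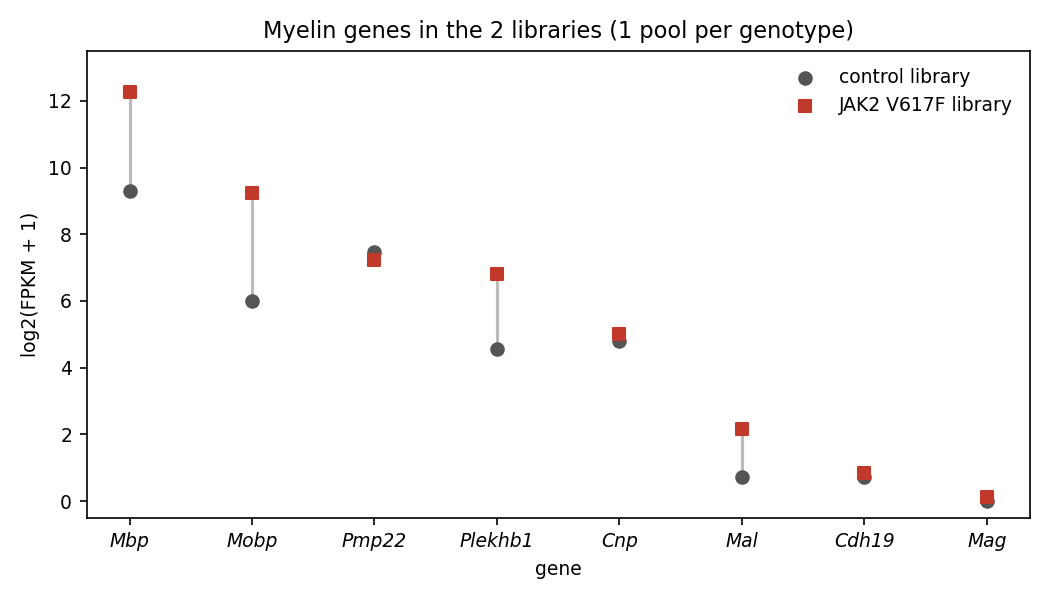
Level of each gene in the control library (grey circle) and the JAK2 V617F library (red square), on the vertical axis as log2(FPKM + 1). Mbp, Mobp, Plekhb1 and Mal are at least 2-fold higher in JAK2 V617F cells, Pmp22 and Cnp are within 2-fold, and Cdh19 and Mag stay below 1 FPKM in both.

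Mbp, the myelin basic protein gene, was at 624 FPKM in control cells and 4872 FPKM in JAK2 V617F cells (log2 ratio 2.96). It was the most abundant of the 8 genes in both libraries. Among all protein-coding genes that have their own row it ranked 81st by FPKM in control cells and 2nd in JAK2 V617F cells. Of all tested single-gene rows, 1.69% had a higher log2 ratio. The gene has 16 transcripts in GENCODE vM21, of which 14 are coding, from 354 to 4797 nt. The row adds them together, so golli and classic transcripts were not separated. Depending on the transcript length assumed, the value rested on about 689 to 15691 fragments in control cells and 6047 to 137758 in JAK2 V617F cells. Even with the fewest fragments, the exact 95% interval of the FPKM ratio was 7.22 to 8.46. Such intervals hold only if both libraries used the same transcripts, and they cover counting error only, since amplified copies were not marked.

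Mobp, whose product is a basic protein of compact myelin in the brain, was at 63.0 FPKM in control cells and 605 FPKM in JAK2 V617F cells (log2 ratio 3.24). This was the widest difference among the 8 genes, and 1.5% of tested single-gene rows had a higher log2 ratio. By FPKM it ranked 1495th among protein-coding genes in control cells and 83rd in JAK2 V617F cells. At the shortest coding transcript (435 nt) the levels correspond to about 97 and 1050 fragments, with an interval of the FPKM ratio from 7.82 to 11.98. Mbp and Mobp were in a similar proportion to each other in the 2 libraries, with 9.90 times as much Mbp as Mobp per length in control cells and 8.05 times in JAK2 V617F cells. The promoter of Mobp is shown because it holds an unusual repetition of the SOX core ACAAAG, a letter string that SOX factors such as the glial regulator SOX10 recognise. The 250 bases before its start (chr9:120149492-120149741, plus strand, GRCm38.p6, RefSeq) are printed 5′ to 3′ with matches on either strand in capitals.
Mobp: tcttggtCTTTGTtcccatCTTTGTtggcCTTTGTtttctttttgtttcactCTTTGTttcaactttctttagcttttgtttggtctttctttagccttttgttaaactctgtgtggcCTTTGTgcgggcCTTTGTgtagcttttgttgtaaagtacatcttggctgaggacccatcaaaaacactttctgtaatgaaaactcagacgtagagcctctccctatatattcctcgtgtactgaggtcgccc

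This window holds 6 copies of the SOX core, all on the opposite strand, in a stretch rich in T. Of 32851 promoter windows of the same length in the RefSeq table, 1, or 0.00304%, holds as many as 6, and 16.5% hold at least 1. A match describes the letters and is not shown to be a binding site.

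Plekhb1 encodes evectin, a membrane-attached protein with a pleckstrin homology domain that is abundant in photoreceptors and myelinating glia. It was at 22.4 FPKM in control cells and 112 FPKM in JAK2 V617F cells (log2 ratio 2.27), and 2.65% of tested single-gene rows had a higher ratio. At its shortest coding transcript (516 nt) the levels correspond to about 44 and 248 fragments, with an interval of the FPKM ratio from 3.63 to 7.08. Per length, Mobp was 2.82 times Plekhb1 in control cells and 5.43 times in JAK2 V617F cells, so these genes did not differ by the same factor. Mal, a raft proteolipid of myelin, epithelia and T cells, was low in both libraries, at 0.648 FPKM in control cells and 3.498 FPKM in JAK2 V617F cells (log2 ratio 1.45). Its value rested on about 9 and 56 fragments at the longer transcript (2778 nt), with an interval from 2.72 to 12.7. At the shorter transcript (486 nt) it rested on about 1 and 7 fragments, with an interval from 0.80 to 281 that includes a ratio of 1. The call for Mal was lost with a pseudocount of 5 (log2 ratio 0.59), and Mal did not reach 5 FPKM in either library. The windows before the starts of both genes are shown in the same form for comparison with Mobp, with the SOX core and the TEAD core GGAATG in capitals.
Mal (chr2:127656696-127656945, minus strand): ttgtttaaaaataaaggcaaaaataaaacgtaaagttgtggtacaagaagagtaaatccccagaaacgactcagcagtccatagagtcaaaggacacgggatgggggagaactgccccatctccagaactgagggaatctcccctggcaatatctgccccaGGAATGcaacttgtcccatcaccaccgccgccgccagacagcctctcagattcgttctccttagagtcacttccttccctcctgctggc
Plekhb1, upstream start (chr7:100662395-100662644, minus strand): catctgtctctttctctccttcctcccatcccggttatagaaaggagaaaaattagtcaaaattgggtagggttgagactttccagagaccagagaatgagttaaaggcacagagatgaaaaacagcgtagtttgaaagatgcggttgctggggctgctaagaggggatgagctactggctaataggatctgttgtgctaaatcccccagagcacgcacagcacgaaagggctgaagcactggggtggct
Plekhb1, downstream start (chr7:100656966-100657215, minus strand): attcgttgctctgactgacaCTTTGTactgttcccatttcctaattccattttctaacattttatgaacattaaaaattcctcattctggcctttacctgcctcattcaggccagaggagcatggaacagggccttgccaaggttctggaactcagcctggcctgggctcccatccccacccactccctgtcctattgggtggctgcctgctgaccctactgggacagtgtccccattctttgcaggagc

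The Mal window holds 1 TEAD core and no SOX core. The upstream Plekhb1 window has neither, and the downstream one has 1 SOX core. RefSeq windows were matched for 6 of the 8 genes, with 12 windows in all, some of which overlap, and Mbp and Cdh19 were not matched. The SOX core was found in windows of Mobp, Plekhb1, Cnp and Mag (5 of 12 windows), and the TEAD core in windows of Cnp, Mag, Mal and Pmp22 (4 of 12 windows, against 12.6% of all windows). The second SOX form ACAATG (10.7% of all windows), the EGR motif GCGTGGGCG (0.536%), the shorter EGR form GTGGGCG that lies within it (7.02%), the YY1 core ATGGCGG (2.21%) and the TATA box TATAAA (12.4%) were in none of the 12 windows on either strand. Of the genes called higher that had a window, Mobp and Plekhb1 both held the SOX core, and no motif searched was in all of Mobp, Plekhb1 and Mal.

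The widely transcribed Pmp22 and Cnp were within 2-fold. Pmp22, a tetraspan protein of compact peripheral myelin that is also made by fibroblasts, was at 177 FPKM in control cells and 149 FPKM in JAK2 V617F cells (log2 ratio -0.24). It was the second most abundant of the 8 genes in control cells, ahead of Mobp, and the third in JAK2 V617F cells. Mbp exceeded Pmp22 by 3.52 times per length in control cells and by 32.6 times in JAK2 V617F cells. Cnp, which encodes a cyclic nucleotide phosphodiesterase of non-compact myelin, was at 26.8 FPKM in control cells and 31.4 FPKM in JAK2 V617F cells (log2 ratio 0.22). It has 1 coding transcript (2357 nt), at which the levels correspond to about 320 and 422 fragments, with an interval of the FPKM ratio from 1.01 to 1.36. Cnp overlaps Dnajc7 on the opposite strand over 8912 bp. The use of strand is not given in the sources used here, so reads in that overlap may not be separated. Plekhb1 was at 0.834 times the level of Cnp in control cells and at 3.55 times in JAK2 V617F cells. The window before the start of Cnp is shown because it holds both the SOX core and the TEAD core, in a gene that differed little.
Cnp (chr11:100574689-100574938, plus strand): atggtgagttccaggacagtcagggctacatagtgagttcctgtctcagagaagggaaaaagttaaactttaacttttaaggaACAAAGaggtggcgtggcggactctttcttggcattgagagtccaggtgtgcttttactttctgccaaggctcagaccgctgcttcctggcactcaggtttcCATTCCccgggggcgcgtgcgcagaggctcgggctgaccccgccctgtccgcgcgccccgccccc

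Mag and Cdh19 were near the limit of detection. Mag, the sialic acid-binding protein of the innermost myelin membrane, was listed at 0 in control cells and at 0.0842 FPKM in JAK2 V617F cells, which corresponds to about 1 fragment at its longest coding transcript (2434 nt). No difference was detectable for it at this depth. Cdh19, a cadherin of the Schwann cell lineage, was at 0.657 and 0.811 FPKM (log2 ratio 0.13), or about 13 and 19 fragments at its coding transcript (3914 nt). The interval of its FPKM ratio ran from 0.61 to 2.86 and included 1.

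**Figure D2:**
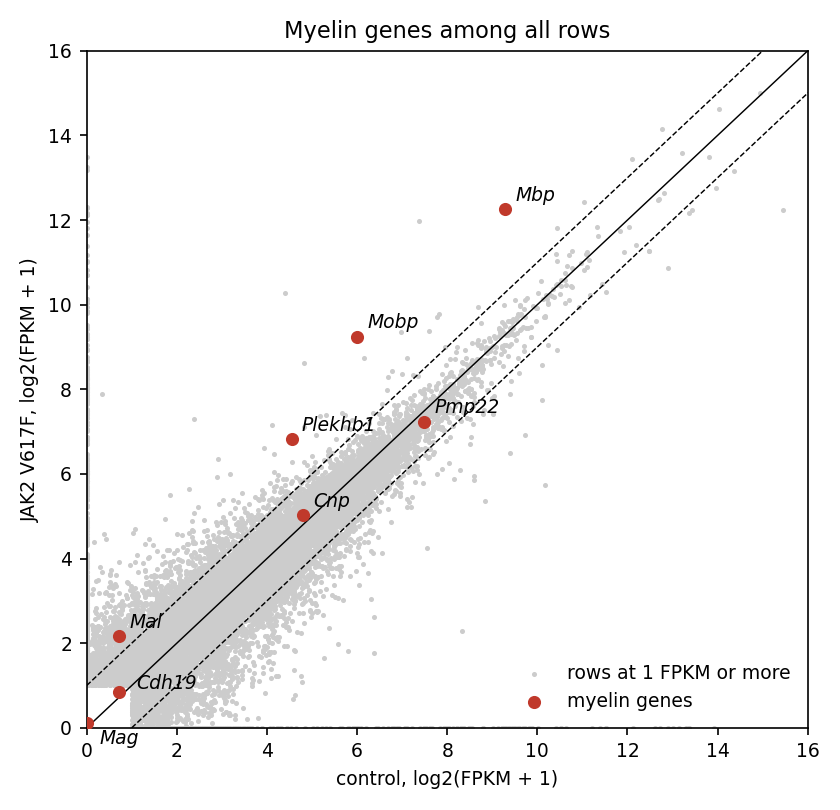
Each grey point is a row at 1 FPKM or more in a library, with the control library on the horizontal axis and the JAK2 V617F library on the vertical axis, both as log2(FPKM + 1). Red points are the 8 myelin-related genes, the solid line marks equal levels and the dashed lines mark 2-fold. Mbp, Mobp and Plekhb1 lie apart above the cloud, Mal lies past the 2-fold line among low rows, and Pmp22, Cnp and Cdh19 lie within it.

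Further myelin protein genes were compared through a list of 30 that includes 7 of the 8 genes. Of the 23 others, 15 reached 1 FPKM, and 3 of these were at least 2-fold higher (20%, against 13.7% of all rows). None was 2-fold lower (against 11.3% of all rows), and the median log2 ratio was 0.48. Bcas1, a gene of oligodendrocytes that begin to myelinate, was at 35.004 FPKM in control cells and 163 FPKM in JAK2 V617F cells (log2 ratio 2.19), close to the difference of Plekhb1. Ermn, a cytoskeletal gene of oligodendrocytes, was at 0.623 and 2.52 FPKM (1.12). Ncmap, a gene of non-compact peripheral myelin, was listed at 0 in control cells and at 1.62 FPKM in JAK2 V617F cells. The calls of Ermn and Ncmap were lost with a pseudocount of 5.

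Some genes of mature myelin were not detected or barely so. Mog, a surface protein of myelin in the brain, was at 0.395 FPKM in control cells and listed at 0 in JAK2 V617F cells. Opalin, a membrane protein of oligodendrocytes, and Pmp2, a lipid-binding protein of peripheral myelin, were listed at 0 in both. In the JAK2 V617F library Mobp was thus at 605 FPKM while Mog and Opalin, also genes of brain myelin, were listed at 0.

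**Figure D3:**
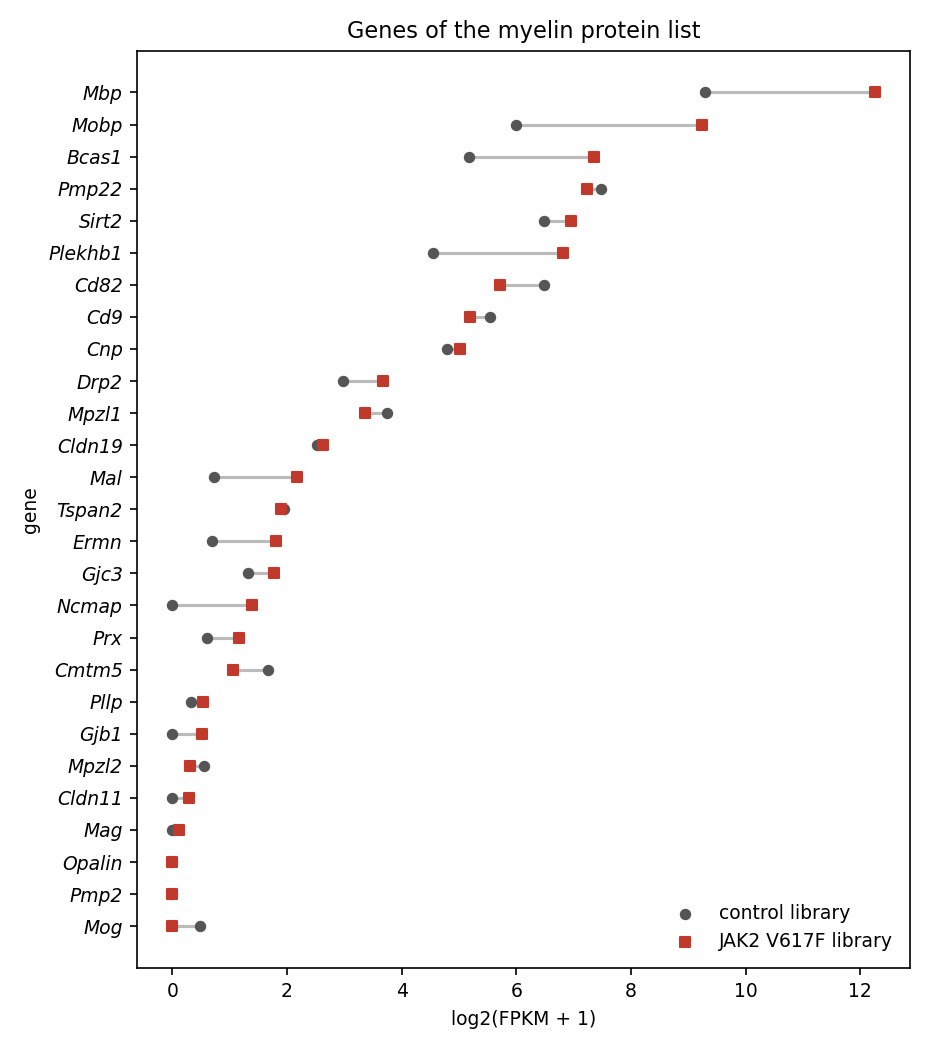
Genes of the myelin protein list, not all of which are drawn, ordered by their level in JAK2 V617F cells, with log2(FPKM + 1) on the horizontal axis, grey circles for the control library and red squares for the JAK2 V617F library. Mbp, Mobp, Bcas1 and Plekhb1 show the longest connecting lines, and Opalin and Pmp2 are at 0 in both.

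Transcription factors of myelination were called at shares close to those of all rows. Of 16 that reached 1 FPKM, 2 passed 2-fold upward and 2 downward (12.5% in each direction, against 13.7% and 11.3% of all rows), and their median log2 ratio was 0.06. Sox10, the factor that specifies Schwann cells and oligodendrocytes, was at 2.30 FPKM in both libraries, and the sign of its ratio depended on the scaling. Egr2, which drives peripheral myelin genes, was at 3.40 and 3.81 FPKM. Myrf, the driver of myelin genes in the brain, was at 0.0392 and 0.0678 FPKM. Pou3f1, a promyelinating factor, was listed at 0 in control cells and at 1.26 FPKM in JAK2 V617F cells. Id2 was the other higher gene (2.72 and 6.996 FPKM, log2 ratio 1.11), while Id4 (4.86 and 1.08 FPKM, -1.50) and Sox2 (3.43 and 0.660 FPKM, -1.42) were lower. With a pseudocount of 5 none of these calls was kept.

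Schwann cell and glial markers were mixed. Of 18 that reached 1 FPKM, 3 passed 2-fold upward and 3 downward (16.7% in each direction, against 13.7% and 11.3% of all rows). The median log2 ratio of the 18 was 0.43. S100b, a calcium-binding protein of glia and also of chondrocytes, was at 22.4 FPKM in control cells and 76.2 FPKM in JAK2 V617F cells (1.72). Art3 was at 17.6 and 41.7 FPKM (1.2), and Gap43 was listed at 0 in control cells and at 1.11 FPKM. Cryab, a small heat shock protein, was lower (32.4 and 9.92 FPKM, -1.61), as were Dhh (3.51 and 1.12 FPKM, -1.09), a Schwann cell morphogen, and Sema3b (6.71 and 2.76 FPKM, -1.04). The calls of Dhh and Sema3b were lost when the libraries were scaled to the same sum. Erbb3, the neuregulin receptor of Schwann cells, was at 1.38 and 1.58 FPKM, from about 44 and 56 fragments, a ratio whose interval ran from 0.75 to 1.72. The low-affinity neurotrophin receptor gene Ngfr was at 0.808 and 2.43 FPKM, from about 14 and 49 fragments, with an interval from 1.69 to 6.11, while its log2 ratio with the pseudocount was 0.93. Summed over the 20 markers other than Cdh19, the level was 198 FPKM in control cells and 254 FPKM in JAK2 V617F cells. The difference between these sums was close to that of S100b alone.

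Oligodendrocyte markers were mostly absent or low. Without Mobp, Cnp and Mag, the list had 15 genes, of which 6 reached 1 FPKM. Of these 6, Ermn was at least 2-fold higher and St18 lower (3.74 and 1.06 FPKM, log2 ratio -1.201). That is 1 gene in each direction (16.7%, against 13.7% and 11.3% of all rows). Olig2 was listed at 0 in both libraries, and Olig1 was listed at 0 in control cells and at 0.132 FPKM in JAK2 V617F cells. The summed level of the 15 genes was 465 and 452 FPKM, most of it from Apod (439 and 415 FPKM), a lipocalin also made by fibroblasts.

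Genes of lipid synthesis did not share the difference of Mbp and Mobp. Of 12 myelin lipid genes that reached 1 FPKM, none was 2-fold higher (against 13.7% of all rows). Another 2 were lower (16.7%, against 11.3% of all rows). The lower ones were Fdps (19.9 and 8.96 FPKM, log2 ratio -1.07) of the sterol pathway and the sphingomyelinase gene Smpd1 (23.4 and 11.1 FPKM, -1.01). Both calls were lost when the libraries were scaled to the same sum. The median log2 ratio of the 12 genes was -0.21. Ugt8a, which makes the myelin lipid galactosylceramide, was at 0.154 and 0.590 FPKM, and Fa2h was listed at 0 in both.

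Genes of axon contact and myelination signals, receptors and laminins among them, were likewise mixed. Of 21 that reached 1 FPKM, 3 were at least 2-fold higher (14.3%, against 13.7% of all rows). Another 4 were lower (19%, against 11.3%), and the median log2 ratio was 0.11. Erbb2, the co-receptor for neuregulin, was at 10.9 FPKM in control cells and 2.18 FPKM in JAK2 V617F cells (-1.91). Also lower were Rtn4r (2.22 and 0.242 FPKM), Lgi4 (3.88 and 0.897 FPKM) and Adam22 (14.2 and 4.997 FPKM). Lingo1 (0.22 and 2.13 FPKM), Omg (0.164 and 1.86 FPKM) and Cadm2 (0.0187 and 1.32 FPKM) were higher. Of these 7, Erbb2 alone kept its call with a pseudocount of 5.

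Neuronal genes were the nerve-related list with the largest share of calls. Of 11 that reached 1 FPKM, 9 passed 2-fold upward (81.8%, against 13.7% of all rows) and none downward. The list's median log2 ratio was 1.46. Since 5 of those 9 were listed at 0 in control cells, reaching 1 FPKM was enough for their call. Of the 9, Uchl1 and Map2 alone reached 1 FPKM in control cells. The synaptic gene Snap25 was listed at 0 in control cells and at 6.63 FPKM in JAK2 V617F cells. Syt1, which encodes a calcium sensor of synaptic vesicles, was listed at 0 and at 3.72 FPKM. The neurofilament genes Nefm (listed at 0 and 2.28 FPKM) and Nefl (0.0599 and 1.92 FPKM), the related Prph (listed at 0 and 1.76 FPKM) and Uchl1 (1.06 and 4.83 FPKM), a neuronal ubiquitin hydrolase, were also higher. Th and Elavl4 were listed at 0 in both. The summed level of the list was 16.03 FPKM in control cells and 57.9 FPKM in JAK2 V617F cells, against 4872 FPKM of Mbp alone in the latter. With a pseudocount of 5, 2 of the 9 were still called, Snap25 and the microtubule gene Map2 (10.02 and 27.7 FPKM).

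**Figure D4:**
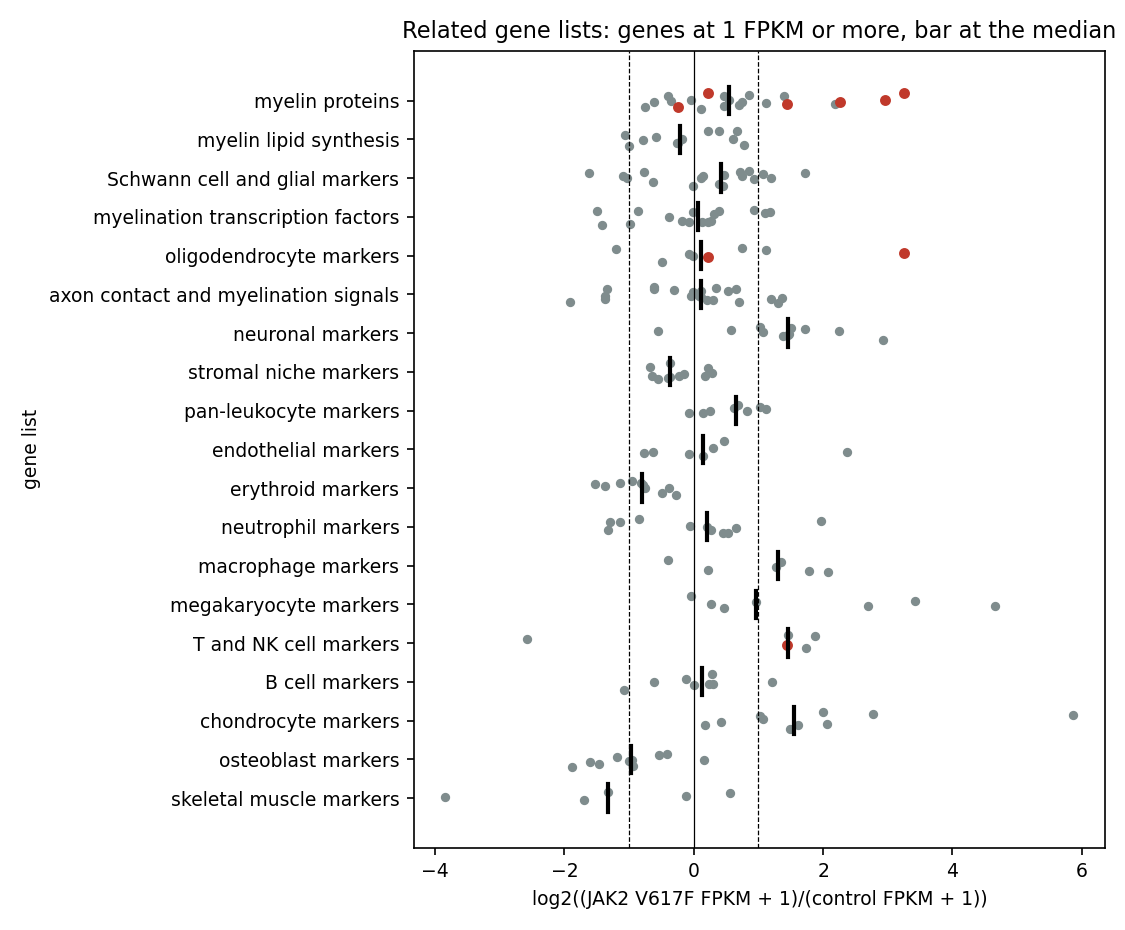
Log2 ratios (horizontal axis) of the genes at 1 FPKM or more in each of 19 lists (vertical axis), with members of the myelin group in red, other genes in grey, a black bar at each list's median and dashed lines at 2-fold. Mobp, Mbp and Plekhb1 stand at the right of the myelin protein row and Mobp alone at the right of the oligodendrocyte row, while the medians of the myelin regulator, lipid and axon contact lists lie near 0.

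Markers of other cells also differed between the 2 pools, and their part in the levels of Mbp, Mobp, Plekhb1 and Mal was not tested. The counts given here stand beside 13.7% of all rows called higher and 11.3% called lower. With a pseudocount of 5 these shares of all rows were 3.95% and 4.10%. Summed megakaryocyte markers were at 25.2 FPKM in control cells and 75.7 FPKM in JAK2 V617F cells, with 3 of 7 genes at least 2-fold higher, among them Pf4 (listed at 0 and 24.1 FPKM) and Ppbp (listed at 0 and 9.76 FPKM). Itga2b (5.30 and 5.09 FPKM), Itgb3 (11.4 and 13.9 FPKM) and Vwf (5.53 and 8.08 FPKM) were within 2-fold. Chondrocyte markers summed to 343 and 1898 FPKM, with 8 of 10 higher, or 5 with a pseudocount of 5. Most of the JAK2 V617F sum was Prg4 (20.1 and 1234 FPKM). The cartilage matrix genes Col2a1 (178 and 238 FPKM) and Acan (17.66 and 19.97 FPKM) were within 2-fold. T and NK cell markers without Mal summed to 36.7 and 96.1 FPKM, with 3 of 4 higher and 1 lower. The higher ones were Nkg7 (27.3 and 76.6 FPKM), Lck (4.27 and 16.6 FPKM) and Cd4 (listed at 0 and 2.69 FPKM), and the lower one was Trbc2 (4.98 FPKM and listed at 0). Of the defining CD3 genes, Cd3d and Cd3g were listed at 0 in both libraries and Cd3e at 0 and 0.285 FPKM. With a pseudocount of 5, the T and NK list with Mal had 2 genes higher in place of 4, and none lower. Of 6 macrophage markers 4 were higher, C1qb (0.233 and 4.198 FPKM), C1qc (0.869 and 3.75 FPKM), Cd68 (3.14 and 13.2 FPKM) and Csf1r (2.49 and 7.41 FPKM), and with a pseudocount of 5 the count was 1. C1qa was listed at 0 in both libraries. The macrophage sums of 258 and 237 FPKM were mostly Lyz2 (207 and 157 FPKM), which neutrophils also express. Pan-leukocyte markers summed to 349 and 463 FPKM (2 of 8 higher), endothelial markers to 36.7 and 44.3 FPKM (1 of 7 higher), neutrophil markers to 2592 and 2632 FPKM (1 of 11 higher, 3 lower) and B cell markers to 177 and 167 FPKM (1 of 8 higher, 1 lower). Erythroid markers summed to 3045 and 1481 FPKM (3 of 10 lower), osteoblast markers to 8179 and 4156 FPKM (4 of 10 lower), skeletal muscle markers to 59.7 and 27.0 FPKM (3 of 5 lower) and stromal niche markers to 1216 and 981 FPKM (none of 11 past 2-fold).

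The 5 genes with levels most like those of Mbp, and the 5 most like Mobp, included none of the 8 genes. Likeness was measured as the distance between genes in log2(FPKM + 1) of the 2 libraries, over protein-coding genes. The gene closest to Mbp was Fth1, ferritin heavy chain, at 1653 and 2328 FPKM, a distance of 1.76, followed by Rplp2 (1075 and 1504 FPKM), Rabggtb (166 and 4006 FPKM), Rpl32 (1555 and 1721 FPKM) and Ppia (1740 and 1851 FPKM). Of these 5, Rabggtb alone was past 2-fold. Closest to Mobp, at distances from 1.17 to 1.53, were the cartilage matrix gene Chad (102 and 313 FPKM), the chaperonin gene Cct6a (138 and 423 FPKM), Cytl1 (27.3 and 394 FPKM), Ifitm2 (100 and 254 FPKM) and the intermediate filament gene Vim (150 and 325 FPKM).

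The genes lie on different chromosomes or far apart, and most of their neighbours that reached 1 FPKM were within 2-fold. In GRCm38 coordinates, Plekhb1 lies on chromosome 7 (100642892 to 100662414, minus strand), as does Mag (30899183 to 30914327, minus strand). Pmp22 (63128982 to 63159547) and Cnp are both on the plus strand of chromosome 11, and the locus of Cnp in the table (100574904 to 100704271) also holds 5 other rows. Mobp is on chromosome 9 (120149742 to 120181484, plus strand), Mal on chromosome 2 (127633226 to 127656695, minus strand), Cdh19 on chromosome 1 (110889195 to 110977372, minus strand) and Mbp on chromosome 18 (82475146 to 82585637, plus strand). The 32 protein-coding genes taken as the nearest 2 on each side of each gene lay up to 4707 kb away. Of them, 21 reached 1 FPKM, 17 of these were within 2-fold, 1 was higher and 3 were lower. Among all rows, 13.7% were higher and 11.3% lower. Zfp236, 8.0 kb from Mbp, was at 9.94 FPKM in control cells and 7.09 FPKM in JAK2 V617F cells. Rpsa, 17.3 kb from Mobp, was at 129 and 155 FPKM, and Rab6a, 1.6 kb from Plekhb1, was at 66.1 and 44.1 FPKM. The 1 higher neighbour, named like the lower ones after its value was seen, was Cd22, a B cell gene 18.8 kb from Mag, at 0.399 and 3.09 FPKM. The lower ones were Slc25a38 near Mobp (58.7 and 26.5 FPKM), Mrps5 near Mal (49.3 and 21.4 FPKM) and Dnajb13 near Plekhb1 (6.25 and 1.81 FPKM). Gm38642, a noncoding gene, overlaps the last 2447 bp of Mobp on the same strand, so fragments there may belong to either gene.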

How the data were processed

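Per the labels' protocols, RNA was extracted from sorted cells, amplified with a NuGEN Ovation kit, made into libraries and run on a Genome Analyzer IIx. The tools named by the submitters' processing notes are TopHat2 2.0.7 with Bowtie2 2.0.6, Cufflinks, and cutadapt 1.2.1, and the build is GRCm38. The authors deposited 1 FPKM value per gene and library, per the file headers. The sources used here do not give the annotation release, the strand setting or any scaling between libraries.

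Log2 ratios used a pseudocount of 1. With 1 library per group no test was possible. Rows naming several genes (401 of 35798) were not used for members or lists. Alternatives were pseudocounts of 0.1 and 5, filters of 0 and 5 FPKM, and 3 scalings. Locus starts, zero-based as deposited, were moved to 1-based positions.

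Depth was estimated from 5575 genes with 1 transcript in GENCODE vM21, as FPKM times transcript length minus 150 nt. This offset, of 31 tried, gave the most whole values: of genes below 3.5 fragments, 79.0% (control) and 84.4% (JAK2 V617F) lay within 0.2 of a whole number. The code for the calls and the depth estimate was run on simulated fragments with counting error only. That run does not address variation between pools or from amplification.

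The genes and the 19 lists were chosen with earlier results of these data known. Named genes are the 8 genes, up to 6 genes per list past 2-fold with the largest log2 ratio, fixed defining genes of Schwann cells and oligodendrocytes, the check of the sort, and the 5 genes closest to Mbp and to Mobp. Cadm2, Map2, Ngfr, Apod, Opalin, Pmp2, Ugt8a, Fa2h, Th, Elavl4, Lyz2, C1qa, the CD3 genes and the neighbours of the genes are outside that rule and were named after their values were seen. The same holds for Col2a1, Acan, Itga2b, Itgb3 and Vwf. Lists of other cell types are mostly given as counts and sums, with names for few genes, and Ahsp, L1cam and Gp1bb had no row of their own. Some members of the lists enter the counts and sums but are not reported here by name. List entries were matched by symbol and by RefSeq synonym. Python 3.11.15, pandas 2.3.3, numpy 2.4.6 and scipy 1.17.1 were used.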

Additional observations from a re-analysis of the deposited data

How the results depend on the processing

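Mbp, Mobp and Plekhb1 stayed at least 2-fold higher under all 5 other pseudocounts and scalings, with log2 ratios of 2.96 to 3.14, 3.17 to 3.42 and 2.09 to 2.44. Mal ranged from 0.59 to 2.27 and lost its call with a pseudocount of 5 alone. Pmp22 (-0.25 to -0.07), Cnp (0.19 to 0.39), Cdh19 (0.04 to 0.27) and Mag (0.02 to 0.88) stayed within 2-fold. The count of genes called higher was 3 with a pseudocount of 5 or at 5 FPKM or more and 4 elsewhere. Of all rows, 3.95% (610) were called higher and 4.10% (633) lower with a pseudocount of 5, against 2108 and 1743 as reported, and 5.89% and 4.87% with no filter on low values. Scaling to the same sum moved the median log2 ratio of all rows from -0.03 to 0.13 and the share of calls that were higher from 54.7% to 63.3%. The median of the skeletal muscle list was 0.018 with no filter, against -1.32 as reported, since genes near 0 then enter it. With no length offset, 1 fragment at 1 kb came to 0.231 and 0.191 FPKM. Depth limits Mag, Mal and Cdh19 most, which rested on few fragments. The count of myelin protein genes called higher was 7 as reported and 4 with a pseudocount of 5. With 1 library per group none could be left out, and no paired analysis was possible because each group has 1 library.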

Other observations

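Inside the Mbp locus, the ribosomal pseudogene Rpl21-ps8 lies on the opposite strand over 483 bp and has a row of its own. Its level was 3.87 FPKM in control cells and 0.486 FPKM in JAK2 V617F cells (log2 ratio -1.71), the opposite direction to Mbp. Dnajc7, which overlaps Cnp on the opposite strand, was at 95.6 and 99.0 FPKM. Outside the myelin-related genes, 6 protein-coding genes had 100 FPKM or more in JAK2 V617F cells and a log2 ratio of at least that of Plekhb1, limits set with the value of Plekhb1 in view. They were Prg4 (20.1 and 1234 FPKM), Clec3a (4.19 and 156 FPKM) and Cytl1 (27.3 and 394 FPKM), which are genes of cartilage or joint, Rabggtb (166 and 4006 FPKM), Trp53inp2 (27.2 and 137 FPKM) and 2310014L17Rik (0.273 and 237 FPKM). They are named after their values were seen.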
